A study of Mus musculus with 4 samples.

Results

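The miR-130 family (mmu-miR-130a-3p, mmu-miR-130b-3p and mmu-miR-301a-3p) and the miR-148 family (mmu-miR-148a-3p, mmu-miR-148b-3p and mmu-miR-152-3p) were described in the stromal-vascular fraction (SVF) of mouse visceral white adipose tissue (visWAT) after β3-adrenoceptor stimulation. They are 6 of the 1247 mouse miRNAs on the array, and were taken by name from the spots that carry miRNA probes. The scanner software called all 6 detected on all 4 arrays, so all 6 were among the 425 miRNAs tested.

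A miRNA is a short RNA that guides Argonaute proteins to messenger RNAs through its seed, bases 2 to 8 counted from the 5′ end, and lowers the amount or the translation of those messengers. miR-130a, miR-130b and miR-301a share a seed and are known as repressors of Pparg, the nuclear receptor that drives the differentiation of preadipocytes into adipocytes. miR-148a, miR-148b and miR-152 share another seed and are known to target Dnmt1, the enzyme that keeps DNA methylation in place through cell division. The arrays measured miRNAs alone, so the levels of Pparg and Dnmt1 were not analysed here.

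The study compared CL-316243 (CL), an agonist of the β3-adrenergic receptor that induces browning of white fat, with its vehicle PBS. Each of the 4 one-colour arrays held RNA from the visWAT SVF of 5 pooled female mice aged 8 weeks, treated for 3 days with PBS (vehicle, 2 arrays) or with 1 mg/kg of CL (2 arrays). The labels give the injections as subcutaneous and the paper as intraperitoneal. The strain field of the labels reads C57/BL6, C57/BL7, C57/BL8 and C57/BL9 for vehicle 1, vehicle 2, CL 1 and CL 2, while the growth protocol names C57/BL6 mice. The SVF is what remains once the floating adipocytes have been taken off digested fat, and it holds preadipocytes, fibroblasts, vascular cells and blood cells. With 2 arrays per group, limma's moderated p-values rest on the spread between arrays of different pools. The spread of each miRNA is drawn toward that of all tested miRNAs. The smallest p of an exact permutation test is 0.333.

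All 4 arrays shared 1 slide and 1 scan. The vehicle arrays lay in row 1 and the CL arrays in row 2, so that row and treatment cannot be told apart. The columns of the slide hold 1 array of each group, and the column coincides with the replicate number. The scanner software detected between 386 and 431 miRNAs per array, and no spot was saturated. With so few arrays, all values below are of limited precision.

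The mature sequences show why the members fall into 2 families and how near to one another these are. They were read from RefSeq (GRCm38.p6), with the seed in capitals.
miR-130a-3p: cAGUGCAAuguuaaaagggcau
miR-130b-3p: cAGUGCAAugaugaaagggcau
miR-301a-3p: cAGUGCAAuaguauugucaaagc
miR-148a-3p: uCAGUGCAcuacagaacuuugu
miR-148b-3p: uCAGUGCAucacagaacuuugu
miR-152-3p: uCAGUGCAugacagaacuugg
The letters AGUGCA start at base 2 in miR-130a, miR-130b and miR-301a and at base 3 in miR-148a, miR-148b and miR-152, so that the seeds overlap but are shifted by 1 base. The seed AGUGCAA occurs in 7 of the 1679 mature miRNAs of the RefSeq table, and CAGUGCA in 3, which are the members themselves.

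Beyond the seed, the members are alike to different degrees. miR-130a-3p and miR-130b-3p are identical at 20 of 22 bases and differ at U11A and A13G (positions from the 5′ end, the base of the first-named miRNA first). miR-130a-3p and miR-301a-3p share 12 of 22 bases. miR-148a-3p and miR-148b-3p share 20 of 22 bases and differ at C9U and U10C. miR-148a-3p and miR-152-3p share 18 of 21 bases, and miR-148b-3p and miR-152-3p 19 of 21.

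The 6 miRNAs are encoded at separate places of the genome (RefSeq, GRCm38.p6). miR-130a-3p lies at chr2:84741116-84741137 on the minus strand, outside the span of any other gene in the table. miR-130b-3p lies at chr16:17124071-17124092 on the minus strand, within the span of 2610318N02Rik. miR-301a-3p lies at chr11:87113054-87113076 on the plus strand, within the span of Ska2, which encodes a spindle and kinetochore protein. miR-148a-3p lies at chr6:51269829-51269850 on the minus strand, within the span of Gm38821. miR-148b-3p lies at chr15:103285185-103285206 on the plus strand within Copz1, and miR-152-3p at chr11:96850439-96850459 on the plus strand within Copz2. Copz1 and Copz2 encode the zeta subunits of the coatomer coat of transport vesicles. Whether these positions are exonic or intronic was not analysed here.

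In the miR-148 family, the signal of miR-148a-3p was on average 2.18-fold higher with CL than with vehicle, that of miR-152-3p 1.58-fold and that of miR-148b-3p 1.15-fold. In the miR-130 family, miR-301a-3p was 1.36-fold and miR-130b-3p 1.29-fold higher on average, and miR-130a-3p stood at 0.978 of the vehicle signal. At an unadjusted p of 0.05, 3 of the 6 members (miR-148a-3p, miR-152-3p and miR-130b-3p) were higher with CL and 0 lower. Of all 425 tested miRNAs, 18.8% passed that threshold higher with CL and 16.2% lower. None of the 6 members passed an adjusted p of 0.05 (limma with Benjamini-Hochberg adjustment over the 425), and neither did any other miRNA (0%). Which members passed the unadjusted threshold changed when 1 array was left out. With the slide column as a block, 2 of the 6 members passed it higher with CL (miR-148a-3p and miR-152-3p). Of all 425 tested miRNAs, 156 passed it in that fit, 79 higher and 77 lower with CL. In bulk RNA such as this, fewer cells of a type and less of a miRNA per cell cannot be told apart.

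**Figure D1:**
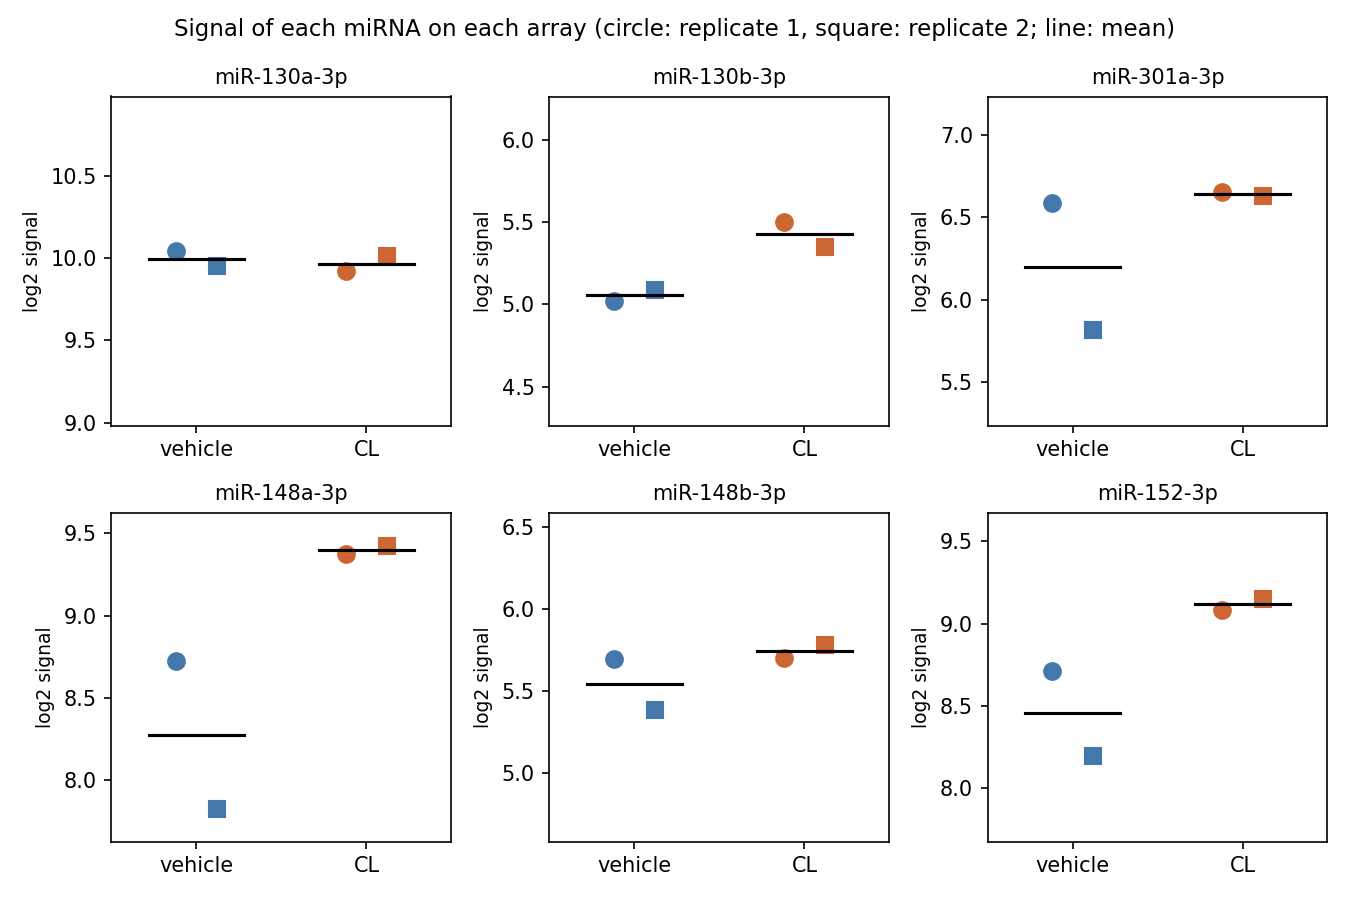
Normalized log2 signal (vertical axis) of each member on each array, for the 2 vehicle and the 2 CL arrays; circles are replicate 1, squares replicate 2 and the line is the group mean, and every panel spans the same number of log2 units. Both CL points lie above both vehicle points for all members except miR-130a-3p, and vehicle 2 lies far below vehicle 1 for miR-301a-3p, miR-148a-3p and miR-152-3p.

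miR-148a-3p had a log2 signal of 8.72 (vehicle 1), 7.82 (vehicle 2), 9.37 (CL 1) and 9.43 (CL 2). The CL arrays lay close together and above both vehicle arrays, which were themselves 0.90 apart. The log2 fold change was 1.13 (SE 0.32, 95% interval 0.26 to 1.99, limma), with an unadjusted p of 0.021 and an adjusted p of 0.112. Within the columns of the slide, CL exceeded vehicle by 0.65 in column 1 and by 1.60 in column 2. Among the 22 alternatives run, the methods' t-test gave an adjusted p of 0.329, and the column as a block gave 0.033 in limma. miR-148a-3p was the single member past the adjusted threshold in that fit, in which 20.2% of all tested miRNAs passed (10.8% higher and 9.41% lower with CL). Without vehicle 1 the log2 fold change was 1.57, and without vehicle 2 it was 0.68.

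miR-152-3p, which shares its seed with miR-148a-3p, had a log2 signal of 8.71 (vehicle 1), 8.20 (vehicle 2), 9.09 (CL 1) and 9.15 (CL 2). Both CL arrays again lay above both vehicle arrays, with vehicle 2 the lowest. This gave a log2 fold change of 0.66 (SE 0.21, 95% interval 0.11 to 1.22, limma), with an unadjusted p of 0.028 and an adjusted p of 0.120. It was 0.37 within column 1 and 0.95 within column 2. Without CL 1, and without CL 2, the unadjusted call was lost, at log2 fold changes of 0.70 and 0.63. Without vehicle 2 the log2 fold change was 0.41, and without vehicle 1 it was 0.92. The adjusted p was 0.066 in limma with the column as a block and 0.329 with the methods' t-test.

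miR-148b-3p had a log2 signal of 5.70 (vehicle 1), 5.38 (vehicle 2), 5.70 (CL 1) and 5.78 (CL 2). Vehicle 1 and CL 1 were 0.003 apart, so the groups were separated mainly by the low vehicle 2. The log2 fold change of 0.20 (SE 0.16, 95% interval −0.22 to 0.62) gave an adjusted p of 0.394 in limma, with a range over the alternatives of 0.044 (without vehicle 1) to 0.935. The value was turned to −0.05 once the trend described further on was removed.

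miR-130a-3p had a log2 signal of 10.04 (vehicle 1), 9.95 (vehicle 2), 9.92 (CL 1) and 10.01 (CL 2). It was the one member whose groups overlapped, and the difference of the means (−0.03, SE 0.12) was smaller than the SD within the vehicle (0.07) and the CL group (0.07). The 95% interval ran from −0.36 to 0.29, and the adjusted p was 0.852 (limma). The sign of so small a value was turned by several other settings, among them scaling to the 75th percentile of all probes and leaving out vehicle 1 or CL 1.

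miR-130b-3p, which differs from miR-130a-3p at 2 bases, had a log2 signal of 5.02 (vehicle 1), 5.09 (vehicle 2), 5.50 (CL 1) and 5.35 (CL 2). Here the vehicle arrays agreed closely, and both CL arrays lay above them. This gave a log2 fold change of 0.37 (SE 0.13, 95% interval 0.03 to 0.71, limma), with an unadjusted p of 0.038 and an adjusted p of 0.132. It was 0.48 within column 1 and 0.26 within column 2. The call at the unadjusted threshold was lost in 10 of the 22 alternatives, among them those without CL 1 (0.29) and without CL 2 (0.45), and its direction was kept in all 22. With the column as a block its unadjusted p was 0.074.

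miR-301a-3p had a log2 signal of 6.59 (vehicle 1), 5.82 (vehicle 2), 6.65 (CL 1) and 6.63 (CL 2). Vehicle 1 and both CL arrays lay close together, and vehicle 2 stood below them. The log2 fold change of 0.44 (SE 0.28, 95% interval −0.32 to 1.19) gave an adjusted p of 0.306 in limma. It was 0.05 without vehicle 2 and 0.83 without vehicle 1, with 0.07 within column 1 and 0.81 within column 2.

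On the normalized spot signals, both CL arrays lay above both vehicle arrays for 5 of the 6 members. The same held for 38.1% of all tested miRNAs, and 72.9% had groups that did not overlap in either direction. The median log2 fold change was 0.66 over the miR-148 family, 0.37 over the miR-130 family and −0.01 over all 425. miR-148a-3p exceeded 96.5% of the tested miRNAs in its fold change, miR-152-3p 88.2%, miR-301a-3p 80.5%, miR-130b-3p 77.2%, miR-148b-3p 66.1% and miR-130a-3p 47.3%.

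**Figure D2:**
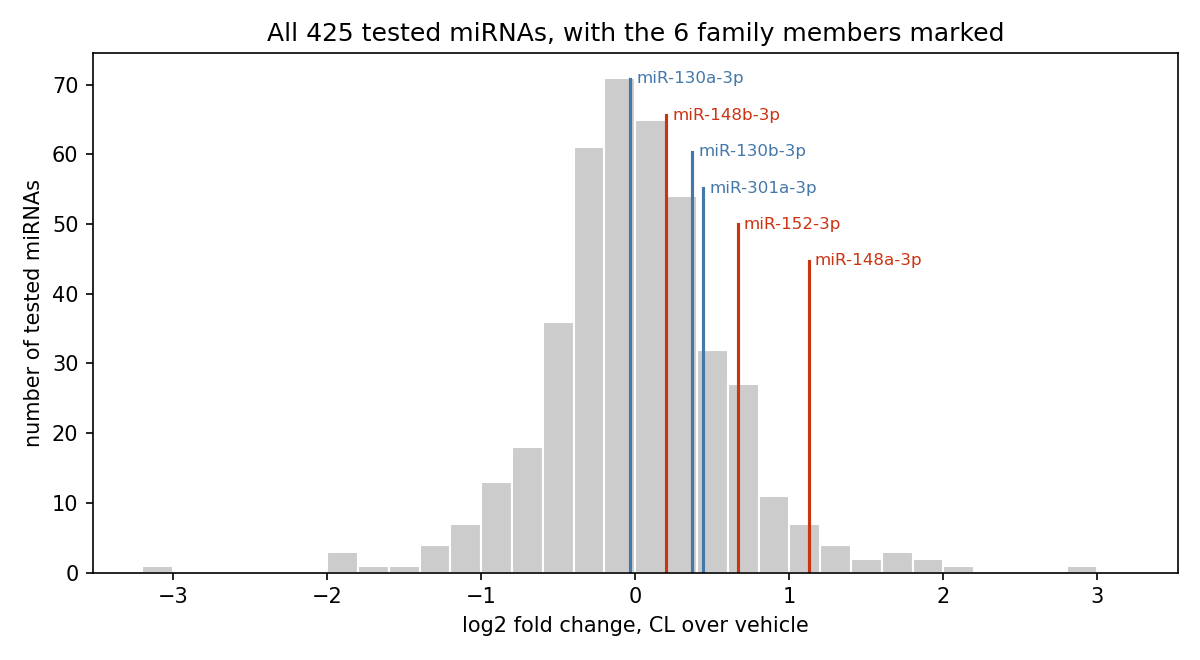
Histogram of the log2 fold changes (CL over vehicle, horizontal axis) of the 425 tested miRNAs, with their number per bin on the vertical axis; blue lines mark the miR-130 family and red lines the miR-148 family. miR-148a-3p at 1.13 lies in the upper tail, and miR-130a-3p at −0.03 lies in the middle.

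The fold changes of the members were then set against one another within each family. That of miR-148a-3p exceeded that of miR-148b-3p by 0.92 on the log2 scale, by 0.65 within column 1 and by 1.20 within column 2. It exceeded that of miR-152-3p by 0.46, and miR-152-3p exceeded miR-148b-3p by as much (the difference of miR-148b-3p and miR-152-3p was −0.46). The fold change of miR-130a-3p was below that of miR-130b-3p (difference −0.40) and that of miR-301a-3p (difference −0.47). The groups did not overlap in these 5 of the 6 within-family pairs, and the share over pairs of other miRNAs was not counted. Singly, 72.9% of all tested miRNAs had groups that did not overlap. Any pair without overlap gives an exact permutation p of 0.333, the smallest these arrays can give, before any adjustment over the pairs. That p therefore only restates the lack of overlap, and the differences within a family are not independent of one another. For miR-130b-3p and miR-301a-3p the difference was −0.07, positive in column 1 (0.41) and negative in column 2 (−0.55), with an exact permutation p of 1.

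**Figure D3:**
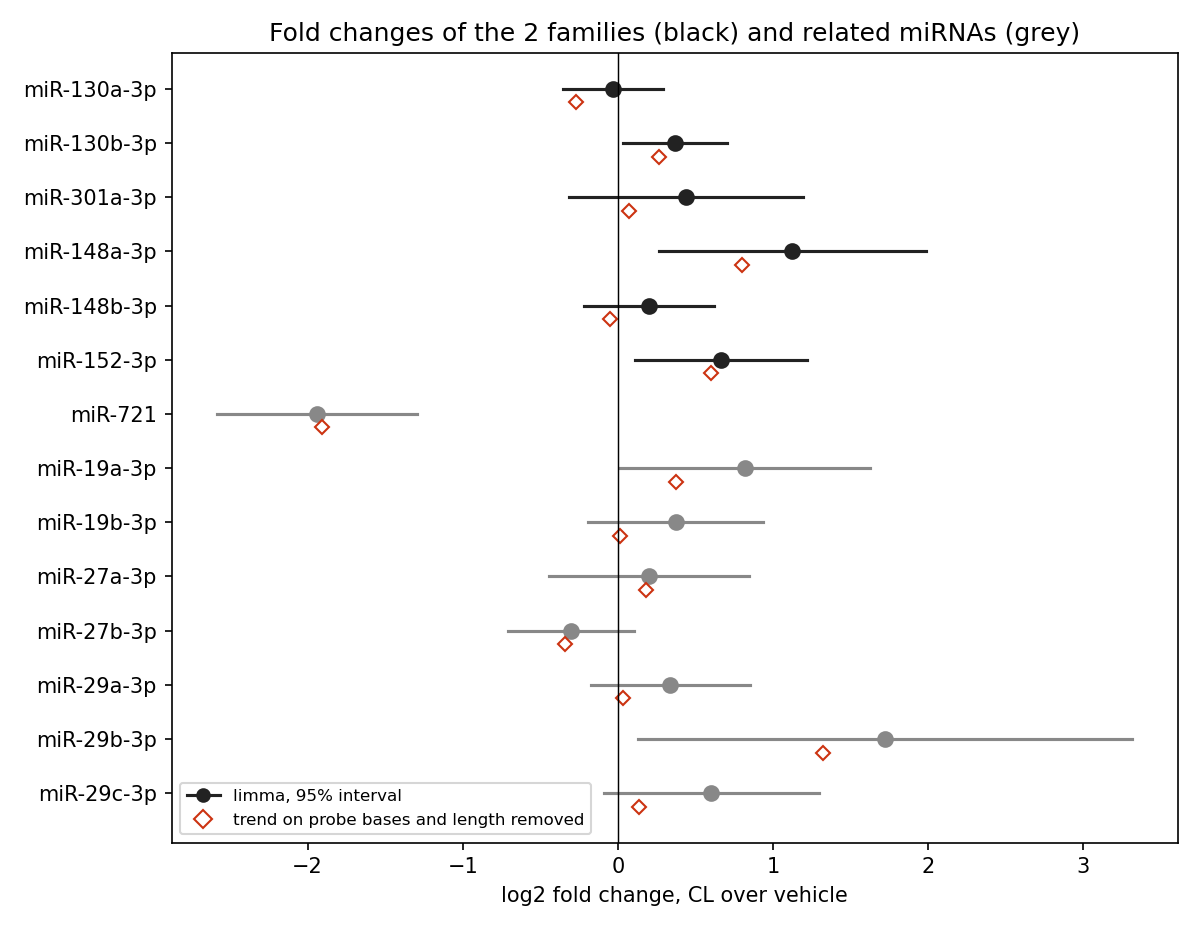
Log2 fold changes (CL over vehicle, horizontal axis) of the 6 members in black and of related miRNAs in grey, with limma's 95% intervals as bars; red diamonds give the fold change after the trend on probe bases and length was removed. The intervals of miR-148a-3p, miR-152-3p and miR-130b-3p lie above 0, and miR-721, which has the seed of miR-130a-3p, lies at −1.94.

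Each member was measured by 40 spots on each array, 20 for each of 2 probes that differ in length by 1 base. Close relatives could share signal on an array, so the probes of the most similar pairs are shown, read from the scanner files, with the bases before the first difference within a pair in capitals.
miR-148a-3p probe: ACAAAGTTCTGTagtgcact
miR-148b-3p probe: ACAAAGTTCTGTgatgcac
miR-130a-3p probe: ATGCCCTTTtaacattgca
miR-130b-3p probe: ATGCCCTTTcatcattgc
The probes of miR-148a-3p and miR-148b-3p begin with the same 12 bases and differ next, opposite C9U and U10C. Those of miR-130a-3p and miR-130b-3p share their first 9 bases and differ opposite A13G and U11A.

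The unnormalized signals show how far each member stood above background. The 1000 negative control spots had means between 31.7 and 38.6 on the 4 arrays. The longer probe of miR-148a-3p had a median signal of 612 (vehicle 1), 314 (vehicle 2), 790 (CL 1) and 904 (CL 2), and its shorter probe was ordered the same way (398, 205, 494 and 569). Before normalization, too, both CL arrays thus exceeded both vehicle arrays on both probes. The longer probe of miR-152-3p gave 570 (vehicle 1), 377 (vehicle 2), 596 (CL 1) and 677 (CL 2).

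The longer probe of miR-148b-3p gave 127 (vehicle 1), 87.6 (vehicle 2), 110 (CL 1) and 120.2 (CL 2), so that vehicle 1 was the brightest array. Its shorter probe stayed between 36.8 and 48.1, near the negative controls, with at most 2 of 20 spots well above background on an array. Of the 2 probes of miR-148b-3p, the longer alone thus stood clearly above background, while the log2 signal was summarised over the spots of both. The normalized log2 difference between CL and vehicle was 0.24 on the longer probe and 0.15 on the shorter.

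The longer probe of miR-130a-3p was brightest on vehicle 1, at 1412, against 1152 on vehicle 2, 1010 on CL 1 and 1138 on CL 2. miR-130b-3p was near background on all arrays. Its longer probe gave 61.3 (vehicle 1), 55.2 (vehicle 2), 72.0 (CL 1) and 65.5 (CL 2), with all 20 spots well above background on each, and of its shorter probe between 3 and 13 of 20 spots were. The longer probe of miR-301a-3p gave 174 (vehicle 1), 96.0 (vehicle 2), 163 (CL 1) and 167 (CL 2).

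**Figure D4:**
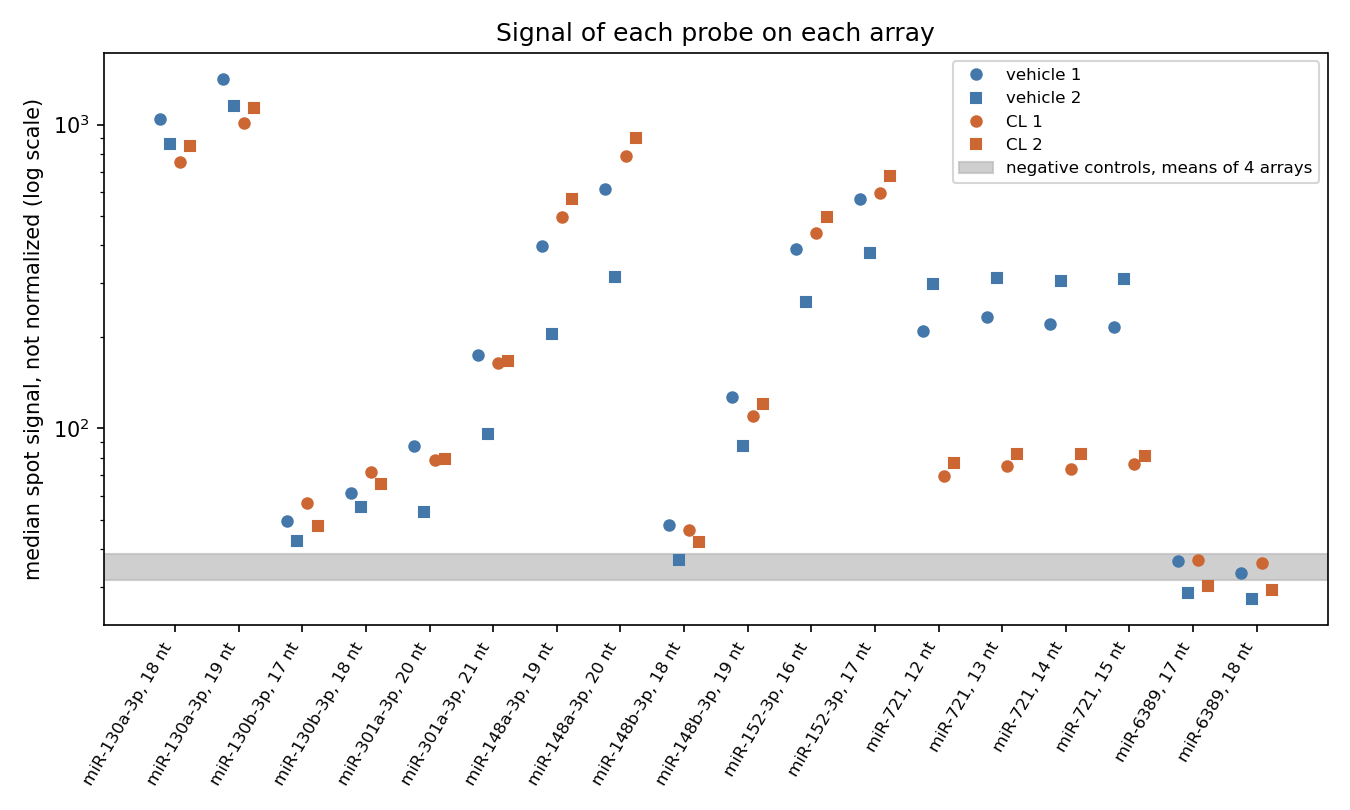
Median unnormalized signal (vertical axis, log scale) of each probe on each array for the members, miR-721 and miR-6389, with the length of the probe in nucleotides (nt) on the horizontal axis; the grey band spans the means of the negative controls. The shorter probe of miR-148b-3p and the probes of miR-6389 lie at or near the band, and miR-721 is lower on both CL arrays with all 4 of its probes.

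Spots of 1 array are repeats of the same hybridisation and not replicates of the treatment. All 40 spots of miR-148a-3p, of miR-152-3p, of miR-130b-3p and of miR-301a-3p had a higher mean normalized signal with CL, as did 37 of 40 for miR-148b-3p. For miR-130a-3p, 16 of 40 spots were higher and 24 lower. For miR-148a-3p, both CL values exceeded both vehicle values at 35 of 40 spots, and for miR-301a-3p at 17.

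The total that the scanner software gives per miRNA did not hold the same thing on every array for miR-148b-3p. On vehicle 1 and CL 2 it was 39.1 and 38.3, the sum of its own 2 probes. On vehicle 2 and CL 1 it was 198 and 499, of which its longer probe made up 22.5 and 28.3, and the rest was the total of miR-148a-3p on the same array (176 and 471). The log2 fold change of miR-148b-3p from these totals was 0.98, against 0.38 from the sum of its own probes, a setting added after the data were seen. On the other members, the scanner total and the sum of their own probes differed by less than 1% on each array.

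The deposited log2 table, which holds the authors' processed values, gave miR-148a-3p as 8.41 (vehicle 1), 7.41 (vehicle 2), 9.07 (CL 1) and 9.04 (CL 2). Its fold changes were 1.15 for miR-148a-3p, 0.68 for miR-152-3p, 0.36 for miR-148b-3p, 0.53 for miR-130b-3p, 0.61 for miR-301a-3p and −0.01 for miR-130a-3p. They have the same order within each family as those from the spots, but none of the 6 members passed an unadjusted p of 0.05 in limma on that table. Of all tested miRNAs, 108 passed it there. The groups of miR-148b-3p overlapped on it, with 5.04 on vehicle 1 above 4.87 on CL 1.

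Fold changes moved with the makeup of the probes. Across the 425 miRNAs, the log2 fold change had a Spearman's rho of −0.43 with the share of C in the longest probe and of 0.47 with its length, as a description over miRNAs that share the same 4 arrays. The members' longest probes were between 17 and 21 nt long (median 19) and held 20.0% to 33.3% C (median 25.1%), against medians of 17 nt and 31.8% over all tested. Once a linear trend on C, G and length had been taken out of every array, the fold change (log2) was 0.80 for miR-148a-3p (unadjusted p 0.010) and 0.60 for miR-152-3p (unadjusted p 0.018). It was 0.27 for miR-130b-3p, 0.07 for miR-301a-3p, −0.05 for miR-148b-3p and −0.27 for miR-130a-3p, with unadjusted p-values of 0.096, 0.686, 0.690 and 0.075 in limma. Thus 2 of the 6 members passed an unadjusted p of 0.05 higher with CL in that fit, in which 21.6% of all tested miRNAs did.

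Among the mature miRNAs of the RefSeq table that are on the array, miR-721, miR-130c, miR-6341 and miR-6389 also carry the seed of miR-130a-3p. miRNAs absent from that table, such as the mature miR-301b-3p, could not be found in this way. miR-130c, miR-6341 and miR-6389 were detected on no array. miR-721 was detected on all 4, and its sequence shows how it differs from the members after the seed.
miR-721: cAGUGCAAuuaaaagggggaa
miR-721 is encoded at chr5:136375777-136375797 on the minus strand. It shares 15 of 21 bases with miR-130a-3p. Its log2 signal was 7.55 (vehicle 1), 8.17 (vehicle 2), 5.84 (CL 1) and 6.00 (CL 2), with both CL arrays far below both vehicle arrays. Its log2 fold change was −1.94 (SE 0.24, 95% interval −2.58 to −1.30), with an unadjusted p of 0.00082 and an adjusted p of 0.092 in limma. It was −1.71 within column 1 and −2.17 within column 2. With the column as a block the adjusted p was 0.004, and over the 22 alternatives it ranged from 4.62e-07 to 0.328, with a lower signal in CL in all of them.

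miR-721 was also set against miR-130a-3p, which has the same seed. The fold change of miR-130a-3p exceeded that of miR-721 by 1.91, by 1.59 within column 1 and by 2.23 within column 2, with an exact permutation p of 0.333, the smallest possible. miR-721 was measured by 4 probes of 12 to 15 nt. Its longest had a median signal of 216 (vehicle 1), 309 (vehicle 2), 75.9 (CL 1) and 80.9 (CL 2), with all 10 spots well above background on each array. It was lower with CL at 39 of 40 spots and higher at 0, and the other spot gave no value. The trend on probe makeup left its fold change at −1.91.

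The longer probe of miR-130a-3p has 12 bases in a row in common with miR-6389, which gave no signal above background on any array (medians of 27.3 to 36.9 over its 2 probes). It has 9 in common with miR-721.

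The arms opposite to the members in their hairpins (miR-130a-5p, miR-130b-5p, miR-301a-5p, miR-148a-5p, miR-148b-5p and miR-152-5p) were all on the array. All 6 were detected on no array and were not tested.

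miR-19a-3p and miR-19b-3p carry a seed that is that of miR-130a-3p shifted by 1 base the other way, and their sequences are shown for that overlap.
miR-19a-3p: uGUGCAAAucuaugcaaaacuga
miR-19b-3p: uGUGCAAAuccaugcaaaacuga
miR-19a-3p had a log2 signal of 6.82 (vehicle 1), 6.01 (vehicle 2), 7.34 (CL 1) and 7.12 (CL 2). Both CL arrays lay above both vehicle arrays, and vehicle 2 was again the lowest. CL exceeded vehicle by 0.82 on the log2 scale (SE 0.30), with an unadjusted p of 0.048 and an adjusted p of 0.139 in limma, and the adjusted p was 0.040 with the column as a block (range over the alternatives 0.011 to 0.425). Leaving out vehicle 1 gave 1.22, and leaving out vehicle 2 gave 0.42. The unadjusted call was kept in only 10 of the 22 alternatives. It was lost, among others, without CL 1 (0.71) and with the trend on probe makeup removed (0.37, unadjusted p 0.078 in limma). miR-19b-3p stood at 0.37 (SE 0.21, adjusted p 0.258).

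Other miRNAs known to act on Pparg or on enzymes of DNA methylation were taken as 2 short lists. Of all tested miRNAs, 18.8% passed an unadjusted p of 0.05 higher with CL and 16.2% lower (limma). miR-27a-3p and miR-27b-3p are known repressors of Pparg, and 0 of the 2 passed an unadjusted p of 0.05. miR-27a-3p stood at 0.20 (SE 0.24, adjusted p 0.580), with overlapping groups, and at −0.11 without vehicle 2. miR-27b-3p stood at −0.30 (SE 0.15, adjusted p 0.217 in limma). miR-29a-3p, miR-29b-3p and miR-29c-3p are known to repress Dnmt3a and Dnmt3b, the enzymes that set new DNA methylation, and 1 of the 3 passed the unadjusted threshold, higher with CL.

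miR-29b-3p had a log2 signal of 9.41 (vehicle 1), 7.67 (vehicle 2), 10.27 (CL 1) and 10.25 (CL 2). The vehicle arrays were 1.74 apart, and both lay below the CL arrays. CL exceeded vehicle by 1.72 (SE 0.60, unadjusted p 0.039, adjusted p 0.134). With the column as a block, its adjusted p was 0.033 in limma (range over the alternatives 3.2e-05 to 0.351). The difference was 2.59 without vehicle 1 and 0.85 without vehicle 2. miR-29a-3p stood at 0.34 (adjusted p 0.260), at 0.11 without vehicle 2 and at 0.03 with the probe trend removed. miR-29c-3p stood at 0.60 (adjusted p 0.178), at 0.26 without vehicle 2 and at 0.13 with the probe trend removed, and its unadjusted p was 0.038 with the column as a block.

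For each family, the tested miRNAs nearest in pattern over the 4 arrays were found by Euclidean distance to the mean of its members. The values of each miRNA had first been centred on their own mean. The members of the miR-130 family did not share 1 pattern. From vehicle 1 to vehicle 2, miR-301a-3p fell by 0.77 and miR-130a-3p by 0.10, while miR-130b-3p rose by 0.07. Those nearest to the miR-130 family were miR-20a-5p (distance 0.074), miR-532-3p (0.075) and miR-379-3p (0.076). Those nearest to the miR-148 family were miR-410-3p (0.043), miR-299b-5p (0.080) and miR-381-3p (0.099). With 4 arrays, such a likeness is a description of these arrays alone.

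The miRNAs that mark cell types of the SVF were summed as linear normalized signals and counted at an unadjusted p of 0.05, which 18.8% of all tested miRNAs passed higher and 16.2% lower with CL. At an adjusted p of 0.05 (limma), 0 of them passed. With the column as a block, 4 of 4 in the fibroblast list passed it, 3 of 3 in the red cell list and 2 of 2 in the endothelial list. So did 3 of 4 in the leukocyte list, 1 of 2 in the mural list and 0 in the adipocyte and the epithelial and mesothelial lists. In that fit 20.2% of all tested miRNAs passed. The fibroblast list (miR-199a-3p, miR-199a-5p, miR-199b-5p and miR-214-3p) summed to 2020 and 3409 on the vehicle arrays and to 6174 and 6302 on the CL arrays, and 4 of 4 passed an unadjusted p of 0.05 higher with CL. The red cell list (miR-144-3p, miR-144-5p and miR-451a) summed to 8204 and 9550 against 14295 and 16907, with 3 of 3 higher. With the trend on probe makeup removed, 1 of these 3 passed, and miR-144-5p and miR-451a stood at log2 fold changes of 0.37 and 0.24. In that fit 4 of 4 in the fibroblast list and 2 of 4 in the leukocyte list passed higher with CL, against 21.6% of all tested miRNAs. Lower with CL were 2 of 2 in the endothelial list, 1 of 4 in the leukocyte list and 2 of 2 in the mural list, against 74 of all 425. The endothelial list (miR-126-3p and miR-126-5p) summed to 14238 and 15504 against 5149 and 6470, with 2 of 2 lower.

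The leukocyte list (miR-142-3p, miR-142-5p, miR-223-3p and miR-150-5p) summed to 1725 and 2300 with vehicle and to 3318 and 3408 with CL, with 2 of 4 higher and 1 lower. The mural list (miR-143-3p and miR-145a-5p) summed to 536 and 635 against 393 and 426, with 1 of 2 lower. Of the adipocyte list (miR-378a-3p and miR-378a-5p, sums of 194 and 208 against 174 and 177), 0 of 2 passed. Of the epithelial and mesothelial list (miR-200a-3p, miR-200b-3p, miR-200c-3p, miR-141-3p and miR-429-3p, sums of 89.0 and 89.8 against 106 and 108), 4 of 5 were detected on no array and 0 of the 1 tested passed. The part of these cell types in the values of the 2 families was not tested.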

How the data were processed

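The authors scanned the arrays with Feature Extraction 10.7.1.1 and deposited the linear intensity of every spot, with flags and totals per miRNA, and a table of processed log2 values, and the methods name robust multi-array analysis (R package oligo) for the study's arrays, without its settings. That table gives each undetected miRNA its array's minimum, so that its column medians are −3.31, −3.30, −3.20 and −3.26. The members and all lists of related and marker miRNAs were chosen with earlier results of these data known.

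From the deposited intensity values, the mean spot signal was background-corrected with normexp (limma 3.58.1, R 4.3.3), fitted on all spots with no offset. Control and outlier-flagged spots were dropped. The arrays were then quantile-normalized, and a median polish over its 40 spots gave each miRNA 1 log2 signal per array. Testing was limited to the 425 of 1247 miRNAs that the scanner software had detected on both vehicle or both CL arrays. CL was compared with vehicle by limma's linear model and moderated test, two-sided, with Benjamini-Hochberg adjustment over all tested miRNAs. The test was first run on simulated data. SAM, which the methods name, rests on relabelling the arrays and was not run.

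The text names all 6 members and the miRNAs of the RefSeq table on the array that share their seed. It also names the opposite arms, miR-19, miR-27 and miR-29 as listed relatives, and the 3 nearest patterns per family. No source states that the replicate numbers pair the arrays. Deviations from the group means correlated at 0.12 (across miRNAs) between arrays of equal number. The number is also the column of the slide, so its block is given where it changes a call.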

Additional observations from a re-analysis of the deposited data

How the results depend on the processing

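Over the 22 alternatives run, miR-148a-3p, miR-152-3p, miR-130b-3p and miR-301a-3p kept a positive log2 fold change in all, with ranges of 0.68 to 1.57, 0.41 to 0.92, 0.16 to 0.97 and 0.05 to 0.83. An unadjusted p of 0.05 was passed in 20, 16, 12 and 1 of them. Of the 6 members, 3 passed that threshold, against 1 with no normalization between arrays (miR-148a-3p), 1 with median centring (miR-148a-3p), 1 with the methods' t-test (miR-130b-3p) and 0 on the deposited log2 table. With 1 array left out the number ranged from 1 to 5, at 5 without vehicle 1 and at 1 without CL 1 or without CL 2; the lone array is then assumed to vary like the other group. No member passed the adjusted threshold in limma, against 1 with median centring and 1 with the replicate block (both miR-148a-3p), and between 0 and 4 with 1 array left out (4 without vehicle 1). Over all tested miRNAs, 149 passed the unadjusted threshold, against 91 with median centring, 52 with the methods' t-test, and 61 to 262 with 1 array left out, from 61 without CL 1 and 78 without CL 2 to 262 without vehicle 1. The replicate block changed the call of no other member at the adjusted threshold; at the unadjusted one it left out miR-130b-3p (p 0.074). Together with removal of the trend on probe makeup, it left 2 members past the unadjusted threshold and 0 past the adjusted one.

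The sign of miR-130a-3p was turned by scaling to the 75th percentile of all probes (0.022), the scanner total (0.041) and the sum of its own probe totals (0.00094, added after the data were seen), and by leaving out vehicle 1 (0.015, the highest such value, against a lowest of −0.080 without vehicle 2) or CL 1 (0.014). That of miR-148b-3p was turned by removal of the probe trend, with and without the replicate block (−0.051 in both). That of miR-27a-3p was turned by leaving out vehicle 2 (−0.11, against a highest of 0.51 without vehicle 1). Without normalization between arrays, the median log2 fold change of all tested miRNAs was −0.12, and 34.3% of the calls were higher with CL, against 53.7% in the main setting. That share was 42.6% on the deposited table. The causes of these changes were not tested.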

Other observations

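Vehicle 2 was below vehicle 1 for 5 of the 6 members, by 0.90 (log2) for miR-148a-3p, 0.77 for miR-301a-3p, 0.51 for miR-152-3p, 0.31 for miR-148b-3p and 0.10 for miR-130a-3p, and above it by 0.07 for miR-130b-3p. Between the CL arrays, no member differed by more than 0.16. The shares of all tested miRNAs for which the same held were not counted, so neither is shown to be particular to the members. Outside the 2 families, vehicle 2 was for instance below vehicle 1 by 1.62 for miR-142-3p and by 1.74 for miR-29b-3p. It was above vehicle 1 by 0.61 for miR-721.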
